A study of Mus musculus with 8 samples.

Results

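The IL-2 axis described here is the gene of the cytokine itself, Il2, with the genes of its 3 receptor chains (Il2ra, Il2rb and Il2rg), of the 2 kinases bound to those chains (Jak1 and Jak3) and of the pair of STAT5 factors (Stat5a and Stat5b). Its 8 genes were found by their symbols among 49040 genes of a deposited count table. All 8 were among the 14672 genes that passed a filter on low counts and were tested. RNA sequencing gave their expression in mouse CD4+ T cells, as 4 libraries of wild-type and 4 of Ikzf4-/- cells. Ikzf4 encodes Eos, a zinc-finger factor of the Ikaros family. Both groups carry the strain label C57BL/6J, and both were naive CD4+ T cells activated for 72 h with anti-CD3 and anti-CD28 bound to plates in Th1-polarizing conditions. The labels give no age or sex, describe the Ikzf4 allele no further, and do not say whether the replicate numbers 1 to 4 stand for animals, litters or cultures. The spread behind each p-value is thus that of the libraries at hand, part of which may be technical. In tests with the replicate number as a block it is the spread left within pairs of same-numbered libraries. In tests without the block it is the spread between libraries of a group. A difference in genetic background between the groups cannot be told apart from that in Ikzf4.

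IL-2 is secreted by activated T cells and acts on the same cells and their neighbours. The alpha chain (CD25, Il2ra) raises the affinity of the receptor, and the beta chain (CD122, Il2rb) and the common gamma chain (CD132, Il2rg) carry the signal. JAK1, bound to the beta chain, and JAK3, bound to the gamma chain, phosphorylate STAT5A and STAT5B, which enter the nucleus and activate genes that include Il2ra itself. In helper T cells the Il2 gene is switched on through NFAT, AP-1 and NF-kB after T cell receptor engagement and is repressed again as IL-2 signals accumulate, in part through Blimp-1.

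The stretches just before the start sites of Il2 and Il2ra are shown because these genes encode the ligand and the chain of highest transcript level in these cells, and because Ikaros-family and NFAT proteins bind short core sequences of the kind marked. They are the 250 bases upstream of each start, 5′ to 3′ on the gene's strand, from RefSeq on GRCm38.p6. Capitals mark the NFAT core GGAAAA, in either direction, in Il2 (chr3:37125955-37126204, minus strand) and the Ikaros core GGGAA in Il2ra (chr2:11642542-11642791, plus strand).
Il2: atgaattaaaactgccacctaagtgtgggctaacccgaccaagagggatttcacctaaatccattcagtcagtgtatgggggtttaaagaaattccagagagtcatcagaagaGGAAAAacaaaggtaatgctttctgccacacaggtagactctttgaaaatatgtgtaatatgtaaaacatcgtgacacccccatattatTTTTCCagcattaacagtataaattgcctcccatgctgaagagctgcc
Il2ra: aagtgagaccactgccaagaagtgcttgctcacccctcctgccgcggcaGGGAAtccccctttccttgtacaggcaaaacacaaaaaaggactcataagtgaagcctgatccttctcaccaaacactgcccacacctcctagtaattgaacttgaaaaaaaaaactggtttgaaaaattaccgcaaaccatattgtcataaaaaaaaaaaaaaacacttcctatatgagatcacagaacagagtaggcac
The Il2 stretch held 2 NFAT cores, at 137 to 132 and, reversed, at 48 to 43 bases before the start, and no GGGAA. The Il2ra stretch held 1 GGGAA, at 201 to 197 bases before the start, and no NFAT core. Both motifs were searched on both strands. GGGAA occurs in 56.2% and GGAAAA in 20.4% of 32851 mouse promoters of the same length. The STAT motif TTCNNNGAA (7.02% of those promoters) and the AP-1 motif TGANTCA (6.75%) were found in none of the windows of the 7 members in the RefSeq table, which has 2 start sites each for Stat5a and Stat5b and 1 for each of the others. The window of Il2rg and 1 of the 2 windows each of Stat5a and Stat5b held 1 GGGAA, and that of Jak3 held 1 NFAT core. Such a match describes letters, not binding.

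Library totals ran from 25227017 to 53149322 counts, and values are given as CPM, the count scaled by the TMM-adjusted library total. The deviations of same-numbered libraries from their group means were correlated across genes (r of 0.62, 0.73, 0.73 and 0.61 for numbers 1 to 4). Correlations between libraries of different numbers were not set beside these, so they cannot show whether the numbers mark true pairs. The pairing was set by the rule that defined the axis genes. The tests compare the groups within numbered pairs (edgeR quasi-likelihood test with the number as a block, Benjamini-Hochberg adjustment over all 14672 genes, threshold 0.05). The fit called 984 genes, 6.71% of those tested, of which 589 (4.01%) were lower and 395 (2.69%) higher in the knockout. Without the block, edgeR called 23 genes (0.157%), with 1189 at an unadjusted p under 0.05. Ikzf4 itself fell from 46.4 ± 6.55 to 3.30 ± 1.22 CPM (SD, n = 4 each), so 7.13% remained. Its change was -3.86 ± 0.16 on the log2 scale (SE; edgeR adjusted p = 2.23e-05). Its groups lay wholly apart, and a 2-sided exact permutation test gave p = 0.0286, which is its smallest value with 4 libraries a group. Cd4 stood at 510 ± 67.7 and 563 ± 101 CPM, and Tbx21, the defining Th1 factor, at 221 ± 52.5 and 217 ± 43.3 CPM; neither was called, while Ifng, the Th1 cytokine gene, and Cd247, the CD3 zeta chain, fell by 1.17 and 0.42 on the log2 scale (adjusted p = 0.000232 and 0.0181). By a chi-square of their counts, libraries numbered 3 and 4 were the most alike in both groups. The 2 libraries numbered 2 were the only ones with Xist, at 503 and 587 CPM against at most 0.57 elsewhere, and the only ones without the Y-linked gene Ddx3y, at no more than 0.0282 CPM against 61.0 to 91.6 CPM.

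Of the 8 genes, the receptor chains Il2ra and Il2rb fell in the knockout, none rose, and 6 were not called. The 2 calls are 2 of 8 genes, where 4.01% of all genes tested were called lower; the 8 genes had been chosen with results of these data known, so no test was run over them as a list. In 3 genes all 4 pairs moved in 1 direction (Il2ra and Il2rb lower, Il2rg higher), where 30.6% of all genes tested did so. In none of the 8 did the groups of libraries separate without overlap, where 4.96% of all genes tested did. DESeq2 with the replicate number as a term called the same 2 genes, where it called 9.64% of 14363 genes. Without the block none of the 8 was called by edgeR or DESeq2, and 2 were at an unadjusted p under 0.05 in edgeR. The median change was -0.01 on the log2 scale over the 8 genes and 0.003 over all genes tested. These are bulk libraries, in which fewer cells of a type and less RNA per cell cannot be told apart.

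**Figure D1:**
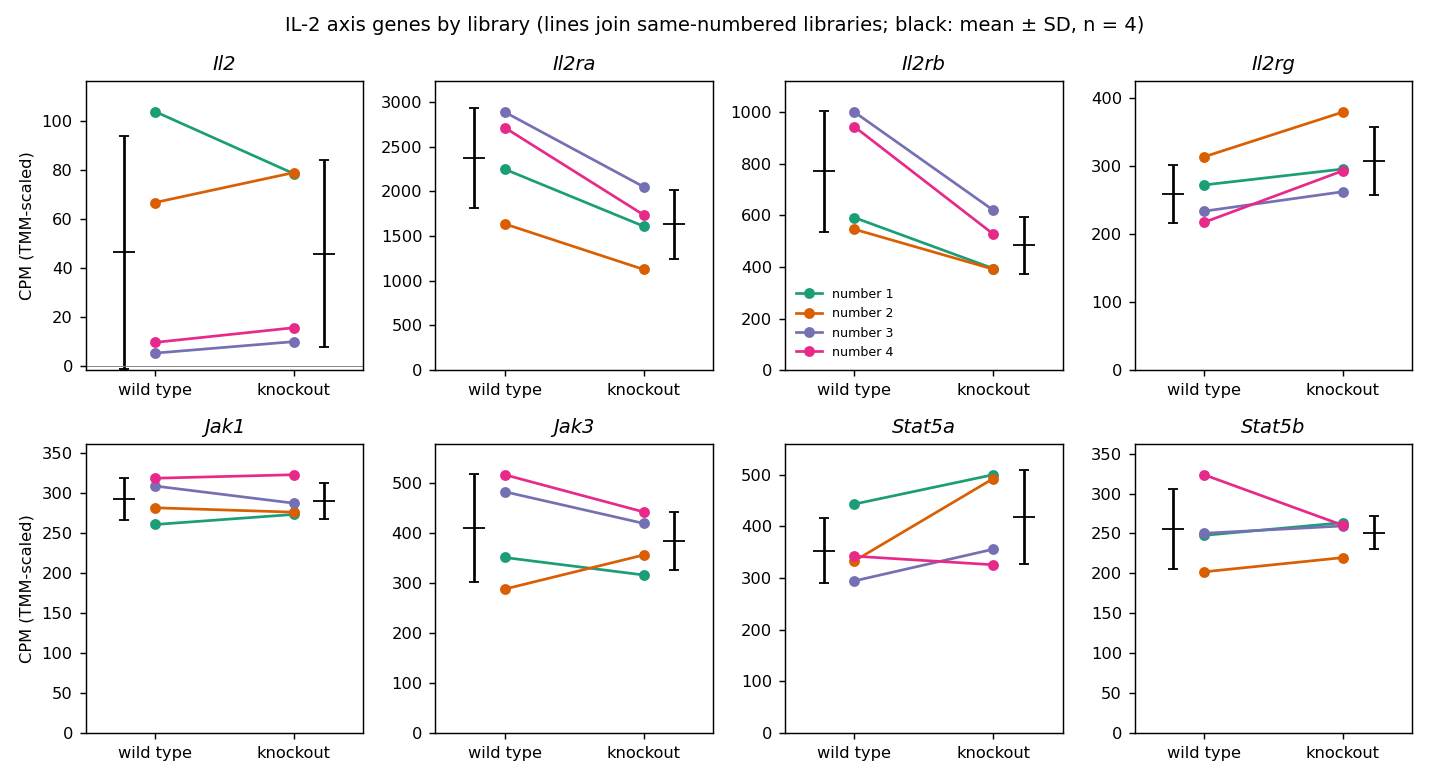
Level of each IL-2 axis gene in CPM (vertical axes, linear, TMM-scaled) in the 4 wild-type and 4 knockout libraries; coloured points are libraries, lines join libraries of the same number, and black bars give the mean ± SD of 4. All 4 lines fall for Il2ra and Il2rb, and all 4 rise for Il2rg, while Il2 separates numbers 1 and 2 from 3 and 4 in both genotypes.

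Il2, the ligand, varied more between library numbers than between genotypes. It stood at 104, 66.6, 5.13 and 9.505 CPM in wild-type libraries 1 to 4 and at 78.4, 78.9, 9.82 and 15.5 CPM in knockout libraries 1 to 4. Numbers 1 and 2 were high and numbers 3 and 4 low in both groups, which overlapped. The range was 20.2-fold within wild type and 8.03-fold within the knockout, the widest of the 8 genes. The group means were 46.3 ± 47.5 and 45.7 ± 38.2 CPM (SD, n = 4). Within pairs the log2 change was -0.40, 0.24, 0.94 and 0.71, and the fit gave 0.31 ± 0.19 with a 95% interval from -0.13 to 0.75 (edgeR adjusted p = 0.402). Without the block the estimate was -0.02, so no direction is given for Il2. The interval includes no change.

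Il2ra, the alpha chain, had the highest level of the 8 genes and ranked 24 of the 14672 genes tested by mean CPM. Wild-type libraries 1 to 4 held 2248, 1636, 2887 and 2713 CPM, and knockout libraries 1 to 4 held 1610, 1127, 2051 and 1737 CPM. Each knockout library lay below the wild-type library of its number, but the groups overlapped because wild-type library 2 lay below knockout libraries 3 and 4. The mean fell from 2371 ± 559 to 1631 ± 384 CPM (SD, n = 4), which is 68.8% of wild type. Within pairs the log2 change was -0.48, -0.54, -0.49 and -0.64, a narrow span beside the 1.76-fold range within wild type. The paired fit gave -0.54 ± 0.06 on the log2 scale (1.45-fold; 95% interval -0.68 to -0.40; edgeR adjusted p = 0.00184). Without the block the estimate was the same, -0.54, with adjusted p = 0.561, and a 2-sided exact permutation test that ignores the pairs gave p = 0.0857.

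Il2rb, the beta chain shared with the IL-15 receptor, showed the other fall. It stood at 591, 546, 1000 and 943 CPM in wild-type libraries 1 to 4 and at 394, 391, 619 and 527 CPM in knockout libraries 1 to 4. Numbers 3 and 4 were again the higher ones in both groups, each knockout library lay below its wild-type partner, and knockout library 3 lay above wild-type libraries 1 and 2. The mean fell from 770 ± 235 to 483 ± 111 CPM, or 62.7% of wild type. Within pairs the log2 change was -0.59, -0.48, -0.69 and -0.84. The paired fit gave -0.65 ± 0.08 (1.57-fold; 95% interval -0.82 to -0.48; edgeR adjusted p = 0.00187), against -0.67 and adjusted p = 0.504 without the block and a 2-sided exact permutation p = 0.114. In the authors' deposited table, from DESeq2, Il2ra had an adjusted p of 0.401 and Il2rb of 0.226, with wild type over knockout at 0.54 and 0.67 on the log2 scale.

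The falls of Il2ra and Il2rb were smaller than the median change among called genes. The median absolute change of the 984 called genes was 0.79 on the log2 scale, and 287 of them changed less than Il2ra and 378 less than Il2rb. Both calls remained when any 1 numbered pair was left out, with edgeR adjusted p from 0.00326 to 0.016 for Il2ra and from 0.00181 to 0.0149 for Il2rb.

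**Figure D2:**
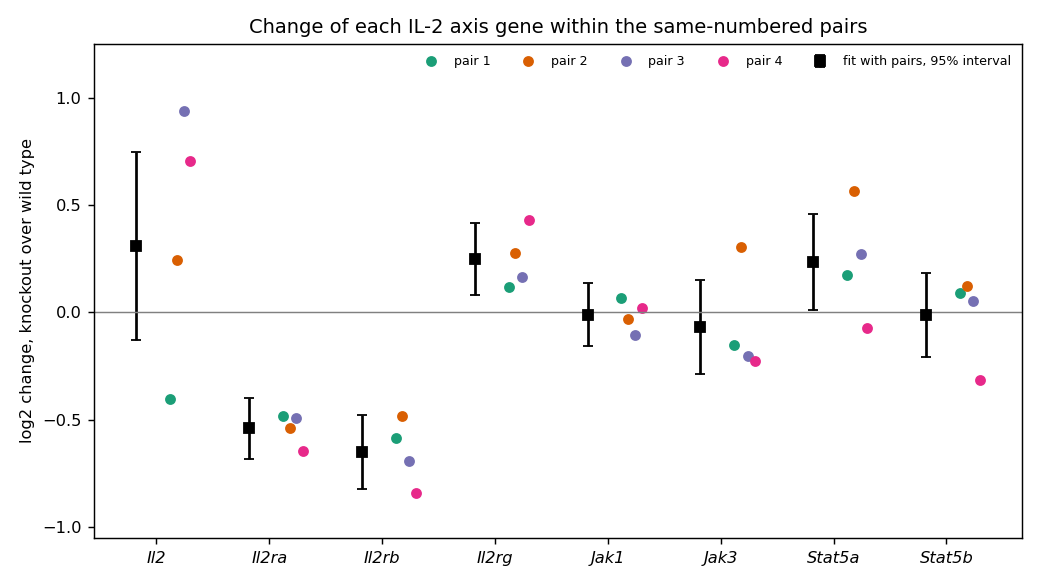
Log2 change, knockout over wild type (vertical axis), of each IL-2 axis gene; coloured points are the 4 same-numbered pairs, and black squares with bars give the paired edgeR estimate and its 95% interval. The intervals of Il2ra and Il2rb lie wholly below 0, those of Il2rg and Stat5a start just above it, at 0.08 and 0.01, and the other 4 include 0.

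Il2rg, the common gamma chain that IL-2 shares with IL-4, IL-7, IL-9, IL-15 and IL-21, did not follow the other chains. Wild-type libraries 1 to 4 held 272, 313, 234 and 217 CPM, and knockout libraries 1 to 4 held 295, 379, 262 and 293 CPM. The knockout library was the higher in each of the 4 pairs, while the groups overlapped. The means were 259 ± 42.9 and 307 ± 50.1 CPM, and the paired change was 0.25 ± 0.07 on the log2 scale (95% interval 0.08 to 0.42; edgeR adjusted p = 0.0859), short of the threshold. It passed with no filter on low counts (adjusted p = 0.0426). Il2rg lies on the X chromosome (GRCm38, positions 101264378 to 101268255, minus strand), and the libraries numbered 2, which hold Xist, were its highest in both groups. Without number 2 the change was 0.24.

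Levels per kilobase of exon allow a rough comparison between genes. The length is that of all annotated exons of a gene together, and orders and ratios between genes depend on that choice. In wild type the order of the chains was Il2ra at 415 ± 97.9, Il2rb at 180 ± 54.7 and Il2rg at 109 ± 17.98 CPM per kb (SD, n = 4). In the knockout Il2ra stood at 286 ± 67.2, Il2rg at 129 ± 21.0 and Il2rb at 113 ± 25.9 CPM per kb. Il2ra was above both other chains in every library, whereas the ranges of Il2rb and Il2rg overlapped in both groups. The level of Il2ra over Il2rg was 3.45, 2.18, 5.17 and 5.22 in wild-type libraries 1 to 4 and 2.28, 1.24, 3.27 and 2.48 in knockout libraries 1 to 4, lower in 4 of 4 pairs. The level of Il2rb over Il2rg was 1.21, 0.97, 2.38 and 2.42 in wild type and 0.742, 0.574, 1.32 and 1.0 in the knockout, again lower in 4 of 4 pairs. The level of Il2ra over Il2rb was 2.86, 2.25, 2.17 and 2.16 in wild type and 3.07, 2.16, 2.49 and 2.47 in the knockout, higher in 3 of 4 pairs. The groups overlapped for all 3 ratios, which were not tested.

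**Figure D3:**
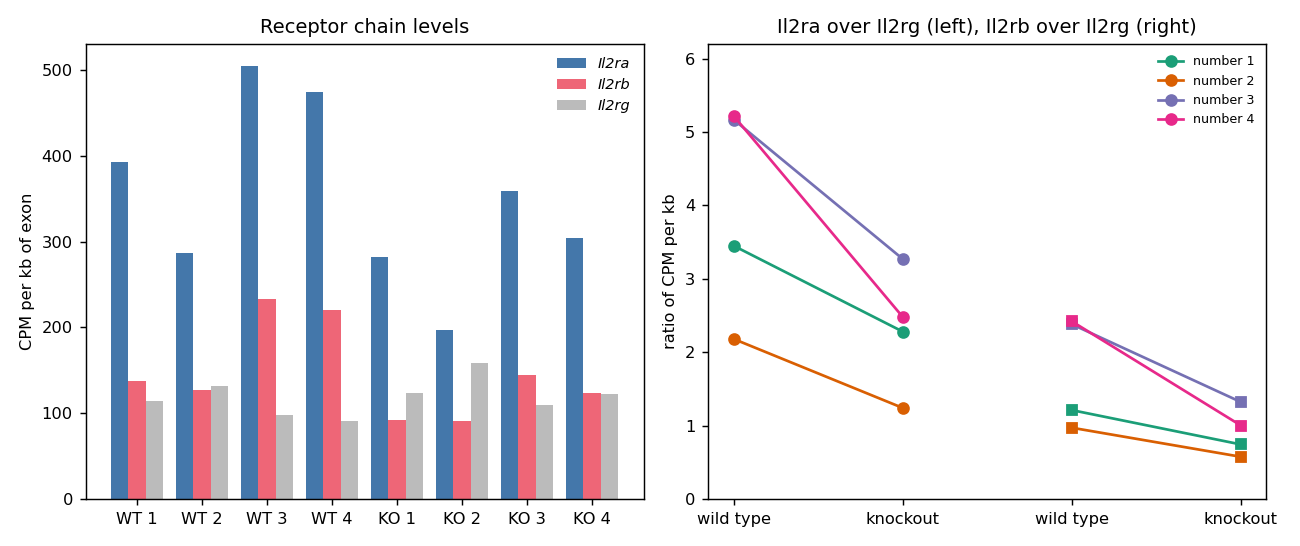
Left, level of the 3 receptor chain genes in CPM per kilobase of exon in each library (WT wild type, KO knockout; bars start at 0). Right, ratios of these levels to Il2rg in each library, with lines joining libraries of the same number; both ratios are lower in the knockout library of each pair, for example 3.45 against 2.28 for Il2ra over Il2rg in number 1.

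Neither receptor-bound kinase was called. Jak1, which binds the beta chain, was the steadiest of the 8 genes, with 260, 281, 309 and 318 CPM in wild-type libraries 1 to 4 and 273, 276, 287 and 323 CPM in knockout libraries 1 to 4. The span over all 8 libraries was 1.24-fold, and the groups overlapped throughout. Its change was -0.01 ± 0.06 on the log2 scale (95% interval -0.16 to 0.14; edgeR adjusted p = 0.945), with the opposite sign when libraries were scaled by their totals only. Jak3, which binds the gamma chain, held 350, 287, 482 and 516 CPM in wild-type libraries 1 to 4 and 315, 355, 418 and 441 CPM in knockout libraries 1 to 4. Numbers 3 and 4 were the higher ones in both groups, and the knockout was lower in 3 of 4 pairs. Its change was -0.07 ± 0.10 (95% interval -0.29 to 0.15; edgeR adjusted p = 0.734); it was -0.19 without number 2 (adjusted p = 0.0593) and -0.02 without number 4. Per kilobase Jak3 was the more abundant, at 76.4 ± 20.2 against 40.4 ± 3.64 CPM per kb for Jak1 in wild type and 71.5 ± 10.8 against 40.1 ± 3.16 in the knockout, with no overlap between these genes in either group. Exons of Jak3 overlap those of Insl3 on the same strand, whose counts amounted to 1.77% of those of Jak3.

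The STAT5 genes were not called either. Stat5a held 443, 333, 294 and 342 CPM in wild-type libraries 1 to 4 and 500, 493, 356 and 326 CPM in knockout libraries 1 to 4. It was higher in the knockout in pairs 1, 2 and 3 and lower in pair 4, and the groups overlapped. The paired change was 0.24 ± 0.10 on the log2 scale (95% interval 0.01 to 0.46; edgeR adjusted p = 0.21); without number 2 it was 0.13. Stat5b held 248, 202, 250 and 324 CPM in wild-type libraries 1 to 4 and 264, 220, 259 and 260 CPM in knockout libraries 1 to 4, with number 2 the lowest of both groups and overlap between them. Its change was -0.01 ± 0.09 (95% interval -0.21 to 0.18; edgeR adjusted p = 0.955), with the opposite sign under scaling by library totals and when number 4 was left out. The level of Stat5a over Stat5b per kilobase was 1.1 ± 0.28 in wild type and 1.31 ± 0.36 in the knockout, higher in 4 of 4 pairs, with overlap between the groups. The exon lengths used were 7133 bases for Stat5a and 5539 for Stat5b, against longest coding transcripts of 3888 and 5213 bases. The size of the ratio depends on that choice, while its direction within pairs does not.

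Sharing of sequence limits the STAT5 values. The longest coding transcripts of Stat5a and Stat5b, of 3888 and 5213 bases, align over 2313 bases with 92.0% identity, and 15.8% of 50-base and 6.99% of 100-base windows of Stat5a occur unchanged in Stat5b. How reads matching both were treated is not given in the sources used here. Both genes lie on chromosome 11 of GRCm38, Stat5b from 100780731 to 100850724 on the minus strand and Stat5a from 100859351 to 100885169 on the plus strand. An exon of Stat5a also overlaps one of Stat3 on the other strand, which had 11713 to 22075 counts per library, and the strand setting of the counting is not given. The other member genes lie on chromosomes 2 (Il2ra, 11642807 to 11693193), 3 (Il2, 37120523 to 37125959), 4 (Jak1, 101152367 to 101265282), 8 (Jak3, 71676296 to 71690575) and 15 (Il2rb, 78479256 to 78495271), none on chromosome 10 with Ikzf4 (128630843 to 128645991).

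The libraries numbered 3 and 4 differed from numbers 1 and 2 along the axis in both genotypes. In both groups, Il2 and Il2rg were lower in numbers 3 and 4 than in 1 and 2, and Il2ra, Il2rb, Jak1 and Jak3 were higher. The gap was small for Il2rg in the knockout, with 295 CPM in number 1 and 293 in number 4. What the numbers stand for is not in the labels. The genes whose log2 CPM followed each member most closely over the 8 libraries, among 8499 genes, are given as a description. For Il2ra they were Gsr, Ly6a and Fut4 (Pearson r of 0.988, 0.983 and 0.983), and for Il2rb Aes, Fam189b and Sema4d (0.996, 0.995 and 0.994). For Il2 they were Alad, Penk and Rps19bp1 (0.990, 0.988 and 0.986), and for Il2rg Smco4, Ccdc28b and Tmc6 (0.993, 0.991 and 0.987). For Jak1 they were C2cd5, Lmbrd2 and Cpne3 (0.985, 0.981 and 0.979), and for Jak3 Nisch, Ttll5 and Elmo1 (0.983, 0.982 and 0.979). For Stat5a they were Mfsd10, Mfhas1 and Zfp64 (0.983, 0.982 and 0.974), and for Stat5b Ankzf1, Map2k1 and Fzd7 (0.976, 0.973 and 0.962). These values contain the difference between the numbers as well as that between the genotypes.

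Among the other genes of the pathway, in 8 lists that hold none of the 8 members, 23 of 109 genes were called (21.1%), 17 lower and 6 higher, each gene counted once and Ikzf4 left out. Over all genes tested 6.71% were called, 4.01% lower and 2.69% higher, and the counts of each list below stand beside these shares. The lists were written with results of these data known. Their median change was -0.06 on the log2 scale, against 0.003 over all genes tested. Without the block none of the 109 was called by edgeR (19 at an unadjusted p under 0.05), and 5 were called by DESeq2 with genotype as its only term (Il7r, Jak2, Gzmb, Pim2 and Pik3r5). DESeq2 with the replicate number as a term called 30, the same 23 and Stat4, Socs2, Foxp3, Ptpn11, Nfatc1, Crem and Egr2. The calls of 12 of these genes depended on at least 1 numbered pair, and these are named below.

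**Figure D4:**
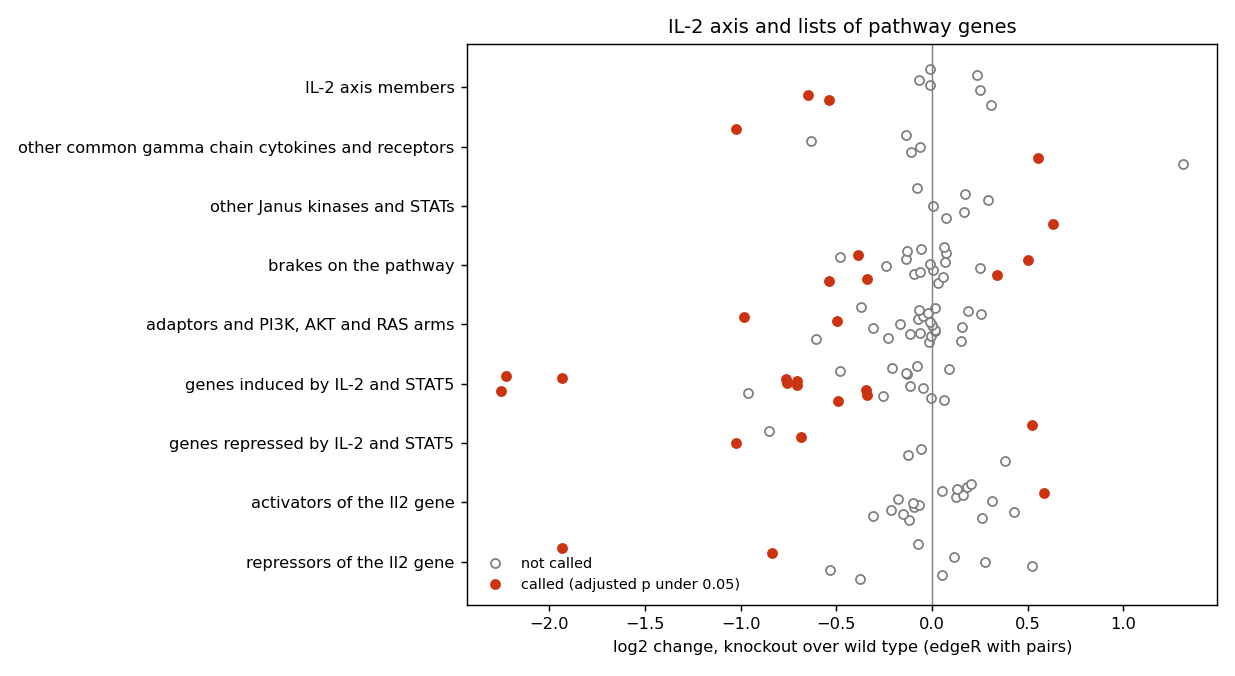
Log2 change, knockout over wild type (horizontal axis, paired edgeR fit), of the 8 IL-2 axis genes and of the tested genes of 8 lists of the pathway (Ikzf4 left out); filled points were called at an adjusted p under 0.05, and the vertical spread within a row only separates points. All 10 called genes of the list induced by IL-2 and STAT5 lie left of 0, and the other Janus kinase called, Jak2, lies right of it.

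Of the other cytokines and receptors that use the gamma chain, 7 of 10 were tested, of which 1 fell, 1 rose and 5 were not called. Il7r, the IL-7 receptor alpha chain, held 79.0, 66.7, 120 and 116 CPM in wild-type libraries 1 to 4 and 39.2, 29.6, 68.2 and 54.1 CPM in knockout libraries 1 to 4. Each knockout library lay below its wild-type partner, with overlap between the groups. The mean fell from 95.4 ± 26.6 to 47.8 ± 16.96 CPM, and the change was -1.02 ± 0.08 on the log2 scale (edgeR adjusted p = 0.000394). Il15ra, the alpha chain that presents IL-15 to the beta and gamma chains, rose from 12.9 ± 1.89 to 19.0 ± 2.70 CPM (0.55 ± 0.10, adjusted p = 0.0142), a call lost without number 1, 3 or 4. Il4ra, of the IL-4 receptor, stood at 409 ± 166 and 353 ± 74.9 CPM, and Il21r, of the IL-21 receptor, at 566 ± 41.0 and 546 ± 101 CPM, neither called.

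Of the other Janus kinases and STATs, 1 of 7 rose, none fell and 6 were not called. Jak2, which serves the IL-12 and interferon gamma receptors and not the IL-2 receptor, held 390, 359, 405 and 502 CPM in wild-type libraries 1 to 4 and 557, 587, 622 and 808 CPM in knockout libraries 1 to 4. The groups lay wholly apart, the knockout being the higher. The mean rose from 414 ± 62.0 to 643 ± 113 CPM, a change of 0.63 ± 0.07 on the log2 scale (1.55-fold, edgeR adjusted p = 0.00115). When pairs were ignored, Jak2 was not called by edgeR (adjusted p = 0.271) but was called by DESeq2 with genotype only (adjusted p = 0.0264). Tyk2, the partner of JAK2 at the IL-12 receptor, changed by -0.08 ± 0.12. Stat4, the STAT of IL-12, changed by 0.29 ± 0.08 (adjusted p = 0.0577) and passed in DESeq2 with the replicate number as a term (adjusted p = 0.0246). Stat3, Stat6 and Stat2 changed by 0.00, 0.17 and 0.17 on the log2 scale and were not called. Stat2 and Stat6 lie on the chromosome of Ikzf4, 337994 and 969886 bases from it.

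Of 22 genes listed as induced by IL-2 and STAT5, 10 fell, none rose and 12 were not called, with a median of -0.34 on the log2 scale. Gzmb, which encodes granzyme B, held 2097, 1015, 4263 and 2668 CPM in wild-type libraries 1 to 4 and 418, 293, 1008 and 380 CPM in knockout libraries 1 to 4. All 4 knockout values were below the lowest wild-type value, and the change was -2.25 ± 0.15 (4.76-fold; edgeR adjusted p = 0.000201). Prf1, perforin, fell by 2.22 ± 0.16 on the log2 scale (adjusted p = 0.000232), and Prdm1, which encodes Blimp-1, fell by 1.93 ± 0.15 (adjusted p = 0.000362). The survival kinases Pim1 and Pim2 fell from 385 ± 94.98 to 234 ± 45.6 CPM (adjusted p = 0.00214) and from 161 ± 18.97 to 95.9 ± 20.1 CPM (adjusted p = 0.00215). Bcl2, an inhibitor of apoptosis, Osm and Lta, both cytokine genes, Nfil3, a transcription factor, and Cish, a feedback inhibitor, were the other 5 that fell. The calls of Cish and Lta were lost without number 1, 3 or 4, and the other 8 calls remained without any 1 number.

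Several well-known genes of the same list were not called. Myc, the growth regulator, stood at 462 ± 59.1 and 430 ± 88.8 CPM. Ccnd2, a cyclin of the G1 phase, stood at 1001 ± 77.7 and 1010 ± 207 CPM, and Tfrc, the transferrin receptor, at 845 ± 130 and 903 ± 186 CPM. Foxp3, the regulatory T cell factor that needs STAT5, stood at 6.98 ± 4.501 and 4.09 ± 4.07 CPM, lower in 4 of 4 pairs but not called (edgeR adjusted p = 0.0992, against 0.0158 in DESeq2 with the replicate number). Of 7 genes listed as repressed by IL-2 and STAT5, Il7r and Klf2, a factor of T cell quiescence and trafficking, fell, Tcf7, a factor of memory and naive cells, rose, and 4 were not called. Klf2 changed by -0.68 ± 0.15 on the log2 scale (adjusted p = 0.0345; lost without number 2, 3 or 4) and Tcf7 by 0.52 ± 0.08 (adjusted p = 0.00836; lost without number 3).

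Of 20 brakes on the pathway, 3 fell, 2 rose and 15 were not called. Cish, which is induced by STAT5 and dampens signalling, fell from 262 ± 27.7 to 208 ± 34.1 CPM (-0.34 ± 0.07, edgeR adjusted p = 0.0226). Socs3, a suppressor of cytokine signalling, changed by -0.39 ± 0.09 (adjusted p = 0.0461), a call lost when any 1 number was left out, and Cblb, a ubiquitin ligase, by -0.54 ± 0.13 (adjusted p = 0.0393; lost without 2, 3 or 4). Pias2, an inhibitor of STATs, and Sh2b3, the adaptor Lnk, rose by 0.34 ± 0.07 and 0.50 ± 0.11 on the log2 scale (adjusted p = 0.0258 and 0.0368), both lost without number 1, 3 or 4. Socs1, a suppressor that binds JAKs, changed by -0.14 ± 0.07 and Socs2 by -0.48 ± 0.14 (edgeR adjusted p = 0.297 and 0.0863, the latter against 0.0156 in DESeq2 with the replicate number). Of 24 adaptors and kinases of the PI3K, AKT and RAS arms, only 2 were called, both PI3K subunits and both lower. Pik3r5, a regulatory subunit, fell by 0.98 ± 0.16 on the log2 scale (adjusted p = 0.0102; lost without number 1), and Pik3cd, the delta catalytic subunit, fell by 0.50 ± 0.10 (adjusted p = 0.0245; lost without 1, 3 or 4).

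Upstream of Il2, 1 of 18 activators of the gene was called. Nfkb2, of the alternative NF-kB arm, rose from 433 ± 172 to 661 ± 280 CPM (0.58 ± 0.12, edgeR adjusted p = 0.0283; lost without number 1 or 3). The NFAT, AP-1 and other NF-kB genes of the list were not called in the paired edgeR fit. Of 10 listed repressors, which include Ikzf4 itself, 3 fell and 7 were not called. Besides Ikzf4 these were Prdm1, described above, and Ikzf3, which encodes the related factor Aiolos and fell from 61.7 ± 13.2 to 34.9 ± 10.3 CPM (-0.84 ± 0.08, adjusted p = 0.00087) with no overlap between the groups. Il2 itself was not called.

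Over all genes tested 6.71% were called, 4.01% lower and 2.69% higher, and the counts of markers of other lymphocytes stand beside these shares. Of 6 tested gamma-delta T cell markers, 5 fell, and the summed level of the 7 listed was 23.6 to 81.7 CPM among wild-type and 8.15 to 23.4 CPM among knockout libraries. Of 3 tested NK cell markers, Klrk1 and Klre1 fell and Eomes was not called, with sums over the 7 listed from 27.4 to 57.2 and from 13.1 to 29.2 CPM; Ncr1, a defining NK receptor gene, was at 0 in all 8 libraries. Of 8 regulatory T cell markers, 3 fell (Ikzf2, Ctla4 and Lrrc32), 1 rose (Nrp1) and 4, with Foxp3, were not called, with sums from 604 to 1126 and from 526 to 685 CPM. By group means, Ctla4 (390 and 193 CPM) and Tnfrsf18 (389 and 338 CPM) made up most of these sums, while Nrp1 went from 16.7 to 43.5 CPM. Klrk1 (31.1 and 12.9 CPM) made up most of the NK sums. Neither of the 2 CD8 markers was called, with sums of 4.44 to 12.7 and 3.32 to 16.2 CPM. Il2ra, Il2rb, Gzmb and Prf1 are also expressed by such cells, and the part of these cells in the results was not tested.

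**Figure D5:**
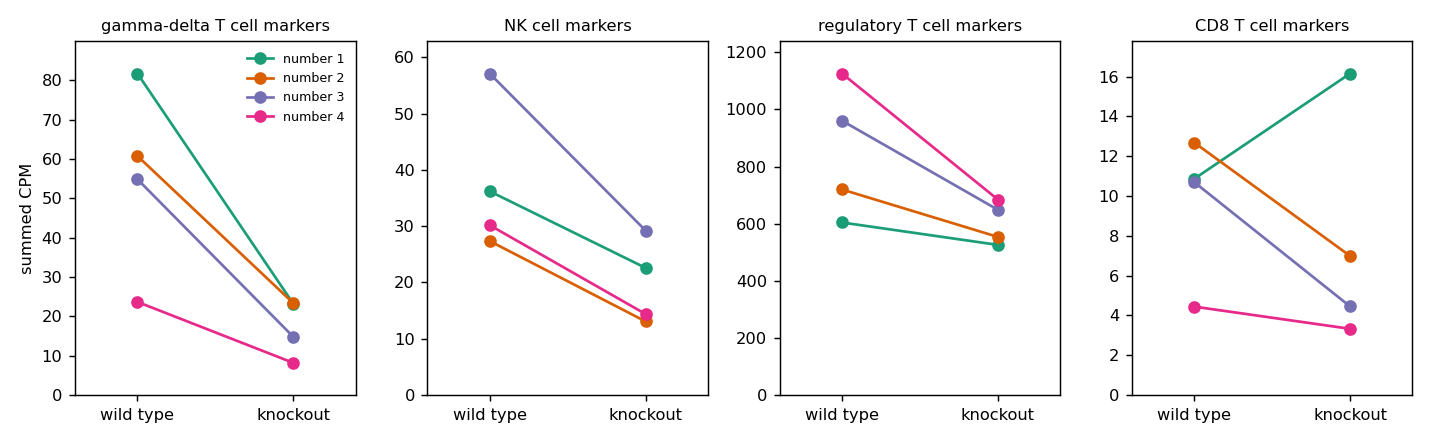
Summed level in CPM (vertical axes, each from 0) of 4 lists of markers in wild-type and knockout libraries, with lines joining libraries of the same number. The gamma-delta, NK and regulatory T cell sums are lower in the knockout library of all 4 pairs, for example 81.7 against 23.2 CPM for gamma-delta markers in number 1, while the CD8 sum is higher in the knockout in number 1. Ctla4 and Tnfrsf18 make up most of the regulatory T cell sum, and Klrk1 most of the NK sum.

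The marker lists of the cultured cells themselves and of further cell types stand beside the 6.71% of all genes tested that were called. Of 11 CD4 and alpha-beta T cell markers, 1 fell (Cd247, the CD3 zeta chain) and 10 were not called, with sums from 3731 to 4792 and from 3670 to 4741 CPM. Of 6 Th1 markers, Ifng fell from 1331 ± 375 to 599 ± 211 CPM and the other 5 were not called, with sums from 1322 to 2774 and from 877 to 1699 CPM. No B cell marker was called among 3 tested (sums of 40.8 to 96.0 and 35.9 to 55.4 CPM), and of 3 antigen-presenting cell markers tested Cd74 rose (sums of 76.5 to 119.6 and 81.2 to 139.5 CPM). H2-Aa and H2-Ab1, also tested, had estimates of -0.45 and -0.51 on the log2 scale and were not called. The mast cell and basophil markers were below the filter, and their sum was 16.02 and 13.9 CPM in wild-type libraries 1 and 3 and at most 0.819 CPM in the other 6. The part of these cells in the falls of Il2ra and Il2rb was not tested.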

How the data were processed

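Total RNA of 8 libraries was sequenced. Per the submitters' processing notes, the authors' tools were STAR 2.5.2, Subread 1.5.2 (featureCounts) and DESeq2, and the build was GRCm38. The sources used here name no annotation, no strand setting and no handling of multi-mapping reads. The authors deposited whole-number read counts per gene. Per the file headers, the same table holds their DESeq2 log2 fold changes (wild type over knockout), p-values, a mean normalised count (a signal) and a standard error and test statistic (scores).

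The deposited counts were tested with edgeR 4.0.16 in R 4.3.3 (TMM, filterByExpr, quasi-likelihood, replicate number as a block), as knockout over wild type; SE is the change over the root of F. The tested genes held 99.9% of counts. The fit was tested on simulated data in which an effect of the replicate number was built in. That test cannot show whether the numbers mark true pairs. CPM per kilobase used GENCODE M21 exon unions. Replicate numbers were taken as pairs by the rule that defined the 8 genes, not from the labels. The correlations of same-numbered libraries were taken without those of different numbers beside them, so they cannot serve as a check of the pairing. Libraries of a group differed beyond counting noise (chi-square per degree of freedom 14.5 or more). Alternatives were no block, DESeq2 1.42.0, other scalings and filters, and each number left out. DESeq2's missing adjusted p-values were left out. The members, lists, the blocked fit and the rule for named genes (the 8 members, fixed pathway genes, up to 4 called genes per list and direction, the 3 genes most like each member by r of log2 CPM with a prior count of 2 and a mean of at least 10 CPM) were chosen with earlier results of these data known. Myc, Ccnd2, Tfrc, Ptpn11, Nfatc1, Crem, Egr2, Klrk1, Klre1, Eomes, Cd247, Ifng, Cd74, H2-Aa, H2-Ab1, Ncr1, Nrp1, Ikzf2, Ctla4, Tnfrsf18, Lrrc32, Xist and called genes beyond 4 were named after their values were seen. The values of 1 gene covered by the rule are not reported here.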

Additional observations from a re-analysis of the deposited data

Results flagged for a closer look

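Stat5b in the knockout had 1 library far from the others of its group. Knockout library 2 held 219.7 CPM, and the other 3 held 259.4 to 263.5 CPM. The gap was 0.907 of the group's range, above Dixon's critical value for 4 samples. The wild-type library of the same number was also the lowest of its group. Of the 16 gene and group combinations checked, this was the only one over that value. Chance gives about 1 in 20 for each check, so 1 of 16 is near what chance gives.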

How the results depend on the processing

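The calls of Il2ra and Il2rb rest on the pairing by number. Without the replicate block the 984 calls over all genes became 23, the 23 over the pathway genes became 0, and Il2ra (-0.54, adjusted p = 0.561) and Il2rb (-0.67, adjusted p = 0.504) were not called; Il2 turned to -0.0188 (adjusted p = 0.998). DESeq2 with genotype only gave 225 and 5 calls, Il2 at -0.0264, Il2ra at -0.54 (adjusted p = 0.401) and Il2rb at -0.67 (adjusted p = 0.226). With no filter on low counts there were 2124 and 35 calls, and Il2rg (0.24) passed with adjusted p = 0.0426. Scaling by library totals turned Jak1 to 0.0138 and Stat5b to 0.0128. With 1 number left out, the calls ran from 398 (without number 3) to 1437 (without number 2) over all genes and from 12 to 26 over the pathway genes. The Il2 change then ran from 0.15 to 0.59, Jak3 from -0.19 to -0.02, Jak1 from -0.0383 to 0.0171 and Stat5b from -0.0545 to 0.0884. The cause of these shifts was not tested. Under the other scalings, filters and DESeq2 with the replicate number, Il2ra and Il2rb stayed called and the other 6 genes uncalled, apart from Il2rg as given. Depth is least for Il2 in numbers 3 and 4, at 5.13 to 15.5 CPM.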
